A study of Mus musculus with 9 samples.

Results

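The transcripts described here are 10 genes whose products move calcium through the contraction cycle of the cardiomyocyte. They were chosen by gene name, and all 10 were found among the 15146 gene symbols that the deposited tables list: *Ryr2*, *Casq2*, *Jph2*, *Atp2a2*, *Pln*, *Sln*, *Cacna1c*, *Cacnb2*, *Slc8a1* and *Camk2d*. They were measured in neonatal rat ventricular cardiomyocytes (NRVMs), which are primary cells taken from Sprague Dawley rats at 1 or 2 days of age. The cells were kept in culture for 48 h, infected with an adenovirus at 50 infectious units per cell (an MOI of 50), and collected 48 h after infection. The 3 groups were infected with Adeno-LacZ, which carries a bacterial enzyme and serves as the control, Adeno-Nrf1 or Adeno-Nrf2, with 3 libraries in each group. All groups therefore share the infection and the culture medium with 3% serum, and the comparisons ask how forced expression of either transcription factor changes transcript levels. Per the study's methods, the transgenes were mouse coding regions under the CMV promoter, which is not specific to cardiomyocytes, in a vector that also carries a red fluorescent protein.

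In a ventricular cardiomyocyte, each beat starts when L-type calcium channels in the cell membrane admit a small amount of calcium, which opens the ryanodine receptor and releases a much larger store from the sarcoplasmic reticulum (SR). Junctophilin holds the membrane and the SR close enough for this coupling, and calsequestrin binds calcium inside the SR. Relaxation follows when the SERCA pump returns calcium to the SR, under restraint from the small peptides phospholamban and sarcolipin, and the sodium-calcium exchanger expels the rest. The kinase CaMKII adjusts the channels, the release unit and the pump.

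The depth was 7874458 to 9347192 reads in LacZ, 8533197 to 10274852 in Nrf1 and 10149689 to 11905649 in Nrf2 libraries, counted over genes solved in every library. The deposited values are group means of normalized reads in a table for each pair of groups, and the reads of each library were solved from them as whole numbers. Libraries are named a, b and c from the deepest to the shallowest of a group, and the letters carry no replicate number. For the 10 genes, 30 of 30 combinations of gene and group had 1 solution in whole reads. *Nfe2l2*, which encodes Nrf2 and to which reads of the transgene can align, had 69328 to 95074 reads in the libraries labelled Nrf2 and 2509 to 3455 in the other libraries, and *Nfe2l1*, the Nrf1 gene, was not analysed here, so expression of Nrf1 in the libraries labelled Nrf1 was not checked. Libraries of a group differed by more than sampling noise in every pair, with chi-square values of 1.47 to 5.26 per degree of freedom. In the Nrf2 group, library c had values of 3.68 and 4.64 against a and b, which had 1.93 between them. The labels do not say that the libraries of a group came from separate cell isolations, so the p-values measure the spread between these libraries only.

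Of 8 cardiomyocyte markers listed 7 were in the tables, with *Ttn* not analysed here, and the summed normalized reads of the 7, scaled over the 9 libraries together, were 96815 to 112350 in LacZ, 112420 to 113810 in Nrf1 and 117790 to 120850 in Nrf2 libraries. The highest of them, *Actc1* (cardiac actin), had a log2 fold change of 0.64 with Nrf1, whereas *Tnnt2* (troponin T) had one of -0.21, so these markers did not move together. By a fold change over 1.5 and an adjusted p under 0.05, 1 of the 7 was upregulated with Nrf1, *Actc1*, and 2 were downregulated, *Tnni3* (troponin I, 0.513 times the LacZ level) and *Myl2* (a ventricular myosin light chain, 0.501 times). By adjusted p alone 3 were higher and 4 lower with Nrf1, and with Nrf2 4 were higher and 1 lower, none of them past 1.5-fold. All 8 fibroblast markers were also present, none of them at 0, and 8 of 8 were downregulated with Nrf1 and 6 of 8 with Nrf2. Their summed reads were 121870 to 127720 in LacZ, 30962 to 33380 in Nrf1 and 63402 to 68619 in Nrf2 libraries, and *Col1a1* and *Col3a1*, collagens of the fibroblast matrix, had log2 fold changes of -1.93 and -2.07 with Nrf1. The 5 leukocyte markers summed to 768 to 1143 in LacZ, 567 to 629 in Nrf1 and 601 to 634 in Nrf2 libraries, and 4 of the 5 were downregulated with each factor. With Nrf1 *Cd68*, *Ptprc*, *Adgre1* and *Cd14* had log2 fold changes of -1.59, -1.68, -1.83 and -1.40, and *Csf1r* was the exception at 0.45. The 5 endothelial markers summed to 1035 to 1105, 771 to 861 and 765 to 866 reads in the same order, and 3 of the 5 were downregulated with each factor. With Nrf1 these were *Pecam1* (-0.89), *Cdh5* (-1.02) and *Emcn* (-0.87), whereas the highest ones, *Kdr* (0.15) and *Tek* (-0.46), did not pass 1.5-fold. The 4 smooth muscle markers summed to 16855 to 19895, 28104 to 28372 and 23055 to 24603. With Nrf1 1 of the 4, *Tagln* (0.84), was upregulated and 1, *Myh11* (-1.01), downregulated, with *Cnn1* at 0.11, and with Nrf2 1, *Cnn1* (0.82), was upregulated and 0 downregulated. In RNA from a whole culture, fewer cells of a type and less RNA per cell cannot be told apart, and what part the change in these markers has in the values below was not tested. Within the LacZ group, library b had the lowest summed cardiomyocyte markers, 96815, and the highest summed leukocyte markers, 1143. Library a lay at the other end, with 112350 and 768, and library c lay between them, with 105160 and 900.

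**Figure D1:**
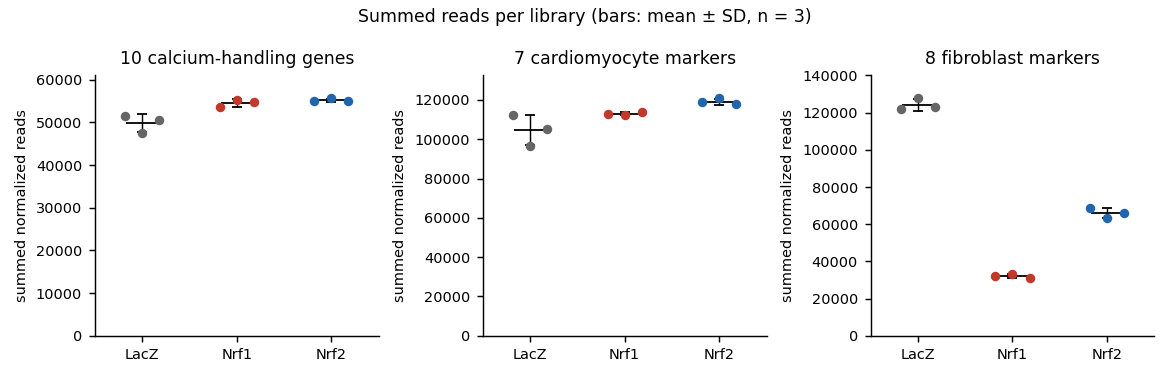
Summed normalized reads (vertical axis, starting at 0) of the 10 calcium-handling genes, 7 cardiomyocyte markers and 8 fibroblast markers in each library of the LacZ, Nrf1 and Nrf2 groups, scaled over the 9 libraries together. Points are libraries and bars are mean ± SD (n = 3): the fibroblast markers lie at 121870 or more in LacZ and at 68619 or less in the other groups, whereas the calcium-handling genes lie between 47467 and 55656 in all 9 libraries.

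Like most genes tested, most of these genes did not pass the rule for a called change. A gene was taken as upregulated or downregulated where its fold change exceeded 1.5 and its adjusted p (limma, Benjamini-Hochberg over all genes tested) was under 0.05. With Nrf1, 2 of the 10 genes, *Ryr2* and *Sln*, were upregulated over LacZ, where 11.4% of 11432 genes tested were, and 0 were downregulated, where 17% of genes were. With Nrf2, 1 of 10, *Sln*, was upregulated over LacZ against 9.24% of 11608 genes, and 0 were downregulated against 9.66%. Between Nrf2 and Nrf1, 0 of 10 were higher in Nrf2 by this rule, against 11.3% of 11492 genes, and 0 were lower, against 4.64%. With limma p-values left unadjusted, the counts past 1.5-fold were again 2, 1 and 0 higher and 0, 0 and 0 lower.

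Taking the adjusted p alone, 4 of the 10 genes were higher with Nrf1 than with LacZ (34.3% of all genes tested) and 0 were lower (32.5%). With Nrf2, 6 of 10 were higher than with LacZ (28.6% of all genes) and 0 lower (26%). Between Nrf2 and Nrf1, 4 of 10 were higher with Nrf2 (28.9% of all genes) and 2 lower (29.8%). Without adjustment the limma counts were the same, at 4 and 0, 6 and 0, and 4 and 2. Their median log2 fold change was 0.06 with Nrf1, 0.21 with Nrf2 and 0.04 for Nrf2 over Nrf1, beside 0.0033, -0.0017 and -0.0045 over all genes tested. The median size of the change, without its sign, was 0.07, 0.21 and 0.14 for the 10 genes. It was 0.35, 0.26 and 0.25 over all genes tested, and 0.28, 0.22 and 0.18 over genes with a mean of at least 1000, which is the range of most of these genes. The comparisons with LacZ share their LacZ libraries, and each is given below with its own values.

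**Figure D2:**
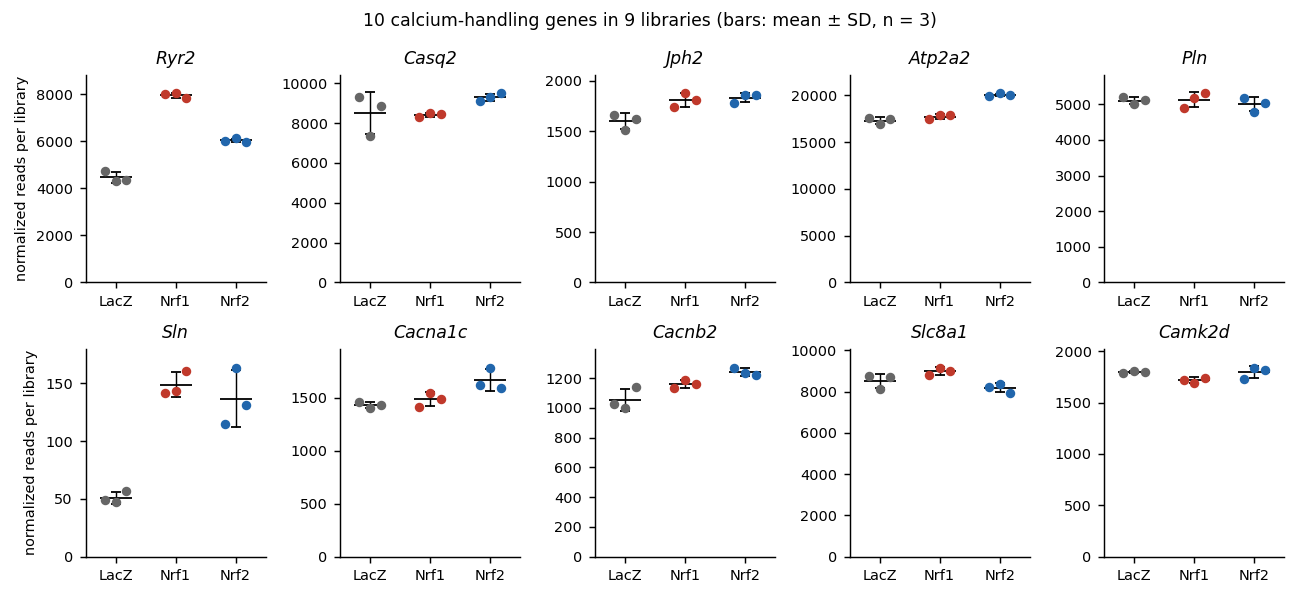
Normalized reads (vertical axis, starting at 0, scaled over the 9 libraries together) of each of the 10 genes in the LacZ, Nrf1 and Nrf2 libraries. Points are libraries and bars are mean ± SD (n = 3); *Ryr2* and *Sln* separate LacZ from both other groups, and *Casq2* has 1 low LacZ library.

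*Ryr2* encodes the ryanodine receptor, the channel through which the SR releases calcium. In the comparison of Nrf1 with LacZ it had 4456, 4050 and 4109 normalized reads in LacZ libraries a to c and 7530, 7552 and 7355 in Nrf1 libraries a to c. Every Nrf1 library lay well above every LacZ library. The fold change was 1.78 (log2 0.83 ± 0.04 SE, 95% confidence interval 0.75 to 0.91, adjusted p 3.16e-11 by limma). In the comparison of Nrf2 with LacZ it had 4751, 4336 and 4384 normalized reads in LacZ and 6022, 6157 and 6022 in Nrf2 libraries. These groups did not overlap either, but the difference, 1.35-fold (log2 0.44 ± 0.04 SE, adjusted p 4.13e-07 by limma), did not reach 1.5-fold. Set directly against each other, the Nrf1 libraries had 8405, 8415 and 8213 and the Nrf2 libraries 6257, 6394 and 6262 normalized reads of *Ryr2*. The level was 0.756 times as high with Nrf2 as with Nrf1 (log2 -0.40 ± 0.02 SE, adjusted p 3.25e-11 by limma), which was the largest difference in size between these factors among the 10 genes. *Ryr2* transcripts were thus ordered LacZ, Nrf2, Nrf1, with no overlap between neighbouring groups.

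*Casq2*, which encodes the cardiac calsequestrin that buffers calcium next to the ryanodine receptor, did not follow *Ryr2*. Its LacZ libraries had 8776, 6915 and 8366 and its Nrf1 libraries 7803, 7998 and 7922 normalized reads, and the groups overlapped. The log2 fold change was -0.01 (95% confidence interval -0.14 to 0.12, adjusted p 0.865 by limma). LacZ library b decided this value, since without it the log2 fold change was -0.12 with an adjusted p of 0.0011. With Nrf2 the libraries had 9186, 9349 and 9559 normalized reads against 9357, 7402 and 8927 in LacZ. The groups overlapped, at a log2 fold change of 0.14 (adjusted p 0.0854 by limma), which rose to 0.20 with an adjusted p of 0.0097 without LacZ library a and was 0.03 with an adjusted p of 0.329 without LacZ library b. The test between the factors does not involve LacZ, and there the Nrf2 libraries, at 9545, 9708 and 9939, all lay above the Nrf1 libraries, at 8710, 8912 and 8846. *Casq2* was higher with Nrf2 by 0.14 on the log2 scale (adjusted p 1.97e-05 by limma).

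*Jph2* encodes junctophilin, the protein that ties the cell membrane to the SR. It had 1566, 1427 and 1527 normalized reads in LacZ and 1640, 1763 and 1701 in Nrf1 libraries, and 1670, 1527 and 1630 in LacZ and 1788, 1872 and 1869 in Nrf2 libraries. In both comparisons every library with a factor lay above every LacZ library, by a small amount. The differences were 1.13-fold with Nrf1 (adjusted p 0.003) and 1.15-fold with Nrf2 (adjusted p 0.0016, both by limma). The factors did not differ detectably from each other, at 1.01-fold (95% confidence interval of the log2 value -0.06 to 0.09, adjusted p 0.761 by limma).

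*Atp2a2* encodes SERCA2, the pump that refills the SR. Its Nrf1 libraries had 16392, 16838 and 16767 normalized reads, within a few percent of the LacZ libraries at 16539, 15932 and 16415. The groups overlapped, and the log2 fold change was 0.03 (95% confidence interval -0.03 to 0.10, adjusted p 0.357 by limma). With Nrf2, 20097, 20323 and 20141 normalized reads stood against 17634, 17054 and 17515 in LacZ. The groups did not overlap, and the difference was 1.16-fold (log2 0.21, 95% confidence interval 0.15 to 0.28, adjusted p 4.01e-05 by limma). *Atp2a2* was also 1.13-fold higher with Nrf2 than with Nrf1 (adjusted p 1.17e-07 by limma), with no overlap between 20884 to 21103 normalized reads in Nrf2 and 18297 to 18762 in Nrf1 libraries.

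*Pln*, which encodes phospholamban, the main inhibitor of SERCA2 in the ventricle, passed the test with neither factor. It had 4895, 4705 and 4817 normalized reads in LacZ and 4612, 4873 and 4980 in Nrf1 libraries. In the comparison with Nrf2 it had 5219, 5036 and 5140 in LacZ and 5218, 4822 and 5073 in Nrf2 libraries. The groups overlapped in both comparisons. The log2 fold changes were 0.0043 with Nrf1 (95% confidence interval -0.07 to 0.08) and -0.03 with Nrf2 (-0.11 to 0.05), with adjusted p values of 0.925 and 0.553, so these intervals exclude a change of 1.5-fold, which is 0.58 on this scale. Between the factors the log2 fold change was -0.04 (adjusted p 0.301 by limma).

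*Sln* encodes sarcolipin, a peptide that binds the same pump and is known mainly from the atria and from slow skeletal muscle. It was scarce in LacZ libraries, with 49, 42 and 48 reads before normalization. The Nrf1 libraries had 150, 147 and 141 and the Nrf2 libraries 139, 187 and 135 reads. After normalization the counts were 46.4, 44.4 and 53.6 in LacZ and 134, 135 and 151 in Nrf1 libraries, and 49.4, 47.5 and 57.2 in LacZ and 116, 165 and 132 in Nrf2 libraries. Every library with a factor lay far above every LacZ library of its comparison. *Sln* rose 2.89-fold with Nrf1 (log2 1.53 ± 0.13 SE, adjusted p 5.81e-08) and 2.64-fold with Nrf2 (log2 1.40 ± 0.15 SE, adjusted p 2.56e-06, both by limma). These were the largest fold changes among the 10 genes, from the gene with the fewest reads. The factors did not differ detectably, at a log2 fold change of -0.14 with a 95% confidence interval of -0.39 to 0.11 (adjusted p 0.325 by limma), and the Nrf2 libraries spread most widely, with a coefficient of variation of 18%.

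*Cacna1c* encodes the pore of the cardiac L-type channel. It had 1371, 1320 and 1352 normalized reads in LacZ and 1332, 1455 and 1400 in Nrf1 libraries, which overlapped (log2 fold change 0.05, 95% confidence interval -0.04 to 0.14, adjusted p 0.329 by limma). With Nrf2 it had 1629, 1794 and 1602 normalized reads against 1462, 1413 and 1442 in LacZ. All Nrf2 libraries were higher, by 1.16-fold on average (adjusted p 0.0013 by limma). It was also 1.12-fold higher with Nrf2 than with Nrf1 (adjusted p 0.0044 by limma), at 1693, 1863 and 1666 against 1487, 1622 and 1563 normalized reads.

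*Cacnb2* encodes the auxiliary subunit that brings this pore to the membrane. With Nrf2 it had 1278, 1242 and 1229 normalized reads against 1032, 1008 and 1146 in LacZ, a difference of 1.18-fold without overlap (adjusted p 0.0014 by limma). Both channel subunits were therefore higher with Nrf2 by a similar small amount. With Nrf1 the values of *Cacnb2*, 1066, 1117 and 1088 normalized reads, overlapped with 968, 942 and 1074 in LacZ. The difference, 0.13 on the log2 scale with an adjusted p of 0.0316 by limma, depended on single libraries, since adjusted p was 0.0831 without LacZ library a, 0.0992 without LacZ library b, 0.113 without Nrf1 library b and 0.0689 without Nrf1 library c. Between Nrf2 and Nrf1 *Cacnb2* was 1.07-fold higher (adjusted p 0.0359 by limma), and adjusted p was 0.118 without Nrf1 library a, 0.0713 without Nrf1 library c, 0.131 without Nrf2 library a and 0.0549 without Nrf2 library b.

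*Slc8a1* encodes NCX1, the exchanger that carries calcium out of the cell in return for sodium. With Nrf1 it had 8276, 8617 and 8467 normalized reads against 8230, 7647 and 8204 in LacZ, and with Nrf2 8291, 8420 and 7992 against 8775, 8185 and 8755. All Nrf1 libraries lay above all LacZ libraries, by a small amount, whereas the Nrf2 libraries overlapped with LacZ. Neither comparison passed, at log2 fold changes of 0.08 (adjusted p 0.0732) and -0.06 (adjusted p 0.203, both by limma). Both rested on single LacZ libraries, since adjusted p was 0.0336 for Nrf1 without LacZ library a (log2 0.09) and 0.0152 for Nrf2 without LacZ library b (log2 -0.09). Between the factors the libraries did not overlap, as 8615, 8743 and 8309 normalized reads in Nrf2 all lay below 9238, 9602 and 9455 in Nrf1 libraries, at 0.907 times the level (log2 -0.14, adjusted p 5.38e-05 by limma). *Slc8a1* and *Ryr2* were the 2 genes that were lower with Nrf2 than with Nrf1.

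*Camk2d*, which encodes the main cardiac form of CaMKII, passed the test in no comparison. It had 1687, 1705 and 1696 normalized reads in LacZ and 1621, 1592 and 1636 in Nrf1 libraries. Although all Nrf1 libraries lay below all LacZ libraries, the log2 fold change was only -0.07 (95% confidence interval -0.15 to 0.01, adjusted p 0.117 by limma). With Nrf2 it had 1743, 1850 and 1828 normalized reads, which enclosed the LacZ libraries at 1798, 1825 and 1810 (log2 fold change -0.0033, adjusted p 0.948 by limma). Between the factors the log2 fold change was 0.06 (adjusted p 0.148 by limma).

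**Figure D3:**
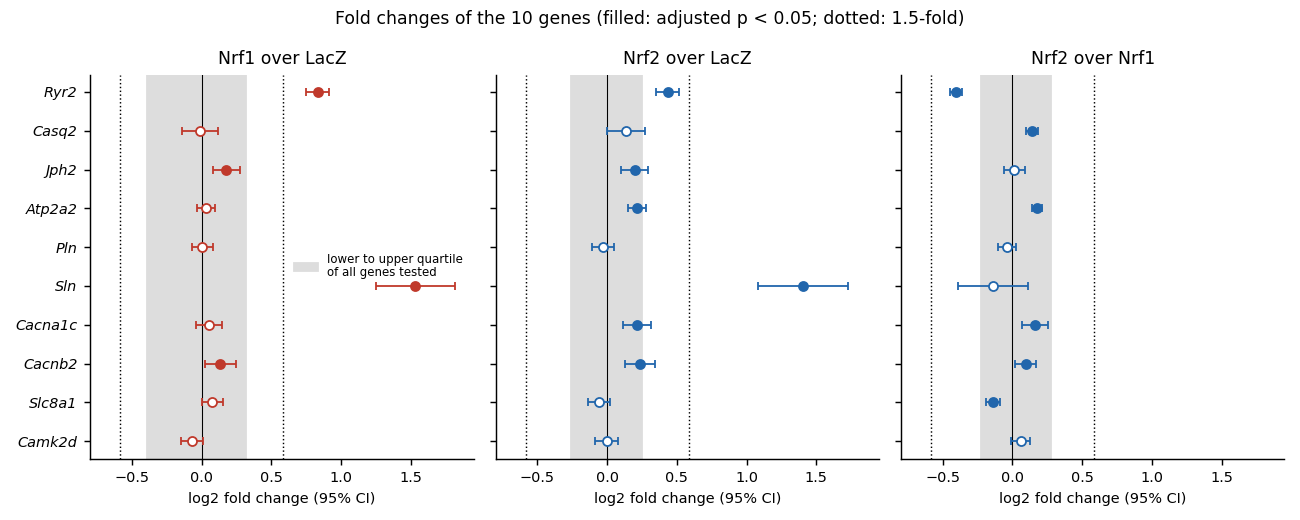
Log2 fold changes (horizontal axis) with 95% confidence intervals for the 10 genes in the 3 comparisons; filled points have an adjusted p under 0.05, dotted lines mark 1.5-fold and the grey band spans the lower to the upper quartile of all genes tested. *Ryr2* with Nrf1 (0.83) and *Sln* with either factor (1.53 and 1.40) lie beyond the dotted lines, and all other points lie between them.

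Ratios of reads within a library do not depend on the normalization and show how the 10 genes shifted against each other. They are given as descriptions without a test, and since gene lengths were not used they say nothing of molar amounts. For each 100 reads of *Casq2* there were 49.1 to 58.6 reads of *Ryr2* in LacZ, 92.8 to 96.5 in Nrf1 and 63.0 to 65.9 in Nrf2 libraries, without overlap between the groups. Against *Cacna1c* the order was the same, with 304 to 325, 519 to 565 and 343 to 376 reads of *Ryr2* for each 100 reads. For each 100 reads of *Atp2a2* there were 29.4 to 29.6 reads of *Pln* in LacZ, 28.1 to 29.7 in Nrf1 and 23.7 to 26.0 in Nrf2 libraries. The Nrf2 libraries lay below all others, in the group where *Atp2a2* was higher and *Pln* did not pass the test. For each 100 reads of *Pln* there were 0.943 to 1.11 reads of *Sln* in LacZ, 2.77 to 3.04 in Nrf1 and 2.22 to 3.41 in Nrf2 libraries. For each 100 reads of *Atp2a2* there were 48.0 to 50.0 reads of *Slc8a1* in LacZ, 50.5 to 51.2 in Nrf1 and 39.7 to 41.4 in Nrf2 libraries.

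**Figure D4:**
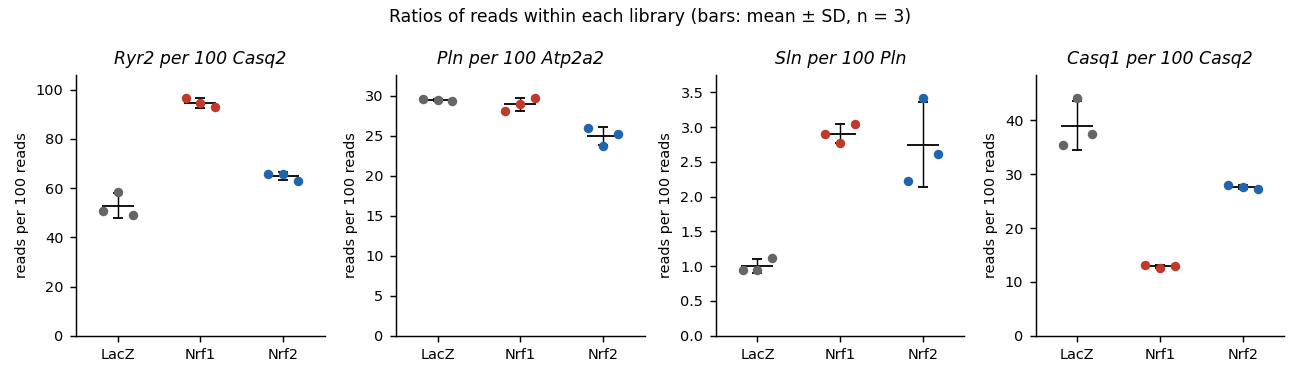
Reads of 1 gene for each 100 reads of another in the same library (vertical axes, starting at 0), for *Ryr2* against *Casq2*, *Pln* against *Atp2a2*, *Sln* against *Pln* and *Casq1* against *Casq2*, in the LacZ, Nrf1 and Nrf2 groups. Points are libraries and bars are mean ± SD (n = 3); *Ryr2* stands at 92.8 to 96.5 in Nrf1 and 49.1 to 58.6 in LacZ, and *Casq1* at 12.6 to 13.2 in Nrf1 and 35.4 to 44.1 in LacZ.

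The 10 genes were then set beside 65 other genes of calcium handling, of which 55 could be tested in at least 1 comparison. With Nrf1, 4 of the 55 tested were upregulated and 14 downregulated, with a median log2 fold change of -0.11, where 11.4% and 17% of all genes tested were. With Nrf2, 5 of 54 were upregulated and 1 downregulated, with a median of 0.0046, against 9.24% and 9.66% of all genes. For Nrf2 over Nrf1, 12 of 55 were higher by the same rule and 1 lower, with a median of 0.17, against 11.3% and 4.64%. The downregulated genes with Nrf1 were spread over voltage-gated channel genes (5 of 10 tested), receptors and channels of IP3 release and store entry (4 of 8), membrane pumps and exchangers (2 of 4), the SR release complex (2 of 10) and pump paralogs (1 of 3). None of 14 calmodulin, kinase and phosphatase genes, of 3 dyad genes or of 3 mitochondrial calcium genes was called with Nrf1 by this rule, with 5 and 5, 2 and 0, and 2 and 0 of them higher and lower by the adjusted limma p alone. By that p alone 34.3% of all genes tested were higher with Nrf1 and 32.5% lower.

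Around the ryanodine receptor, partners of *Ryr2* fell, rose or kept near the LacZ level. *Hrc*, an SR calcium-binding protein, had 187, 175 and 187 normalized reads in LacZ and 47.2, 49.6 and 53.7 in Nrf1 libraries, the largest fall in this list (log2 fold change -1.86, adjusted p 1.38e-09 by limma). *Casq1*, the skeletal calsequestrin and paralog of *Casq2*, fell in Nrf1 libraries to 1032, 1004 and 1023 from 3106, 3051 and 3137 normalized reads (log2 -1.60, adjusted p 1.45e-14). For each 100 reads of *Casq2* there were 35.4 to 44.1 reads of *Casq1* in LacZ, 12.6 to 13.2 in Nrf1 and 27.3 to 27.9 in Nrf2 libraries. *Trdn*, which encodes triadin, the anchor of calsequestrin at the receptor, rose with Nrf2 from 1020, 946 and 993 to 1776, 1806 and 1643 normalized reads (log2 0.82, adjusted p 5.37e-09). With Nrf1 it was higher by 0.16 on the log2 scale (adjusted p 0.0073 by limma), and 13.4 to 14.2 reads of *Trdn* stood beside each 100 reads of *Ryr2* in Nrf1 libraries, against 21.5 to 22.6 in LacZ and 27.3 to 29.5 in Nrf2. *Sri* (sorcin, a calcium sensor of the release unit) and *Bin1* (a protein that shapes the T-tubule) also rose with Nrf2, at log2 fold changes of 0.70 and 0.83, and *Itpr3*, an IP3 receptor, at 0.60. With Nrf1 *Sri* and *Bin1* were higher too, under 1.5-fold (log2 0.48 and 0.46, adjusted p 3.31e-07 and 0.00047 by limma). *Itpr3* was lower with Nrf1 (log2 -0.45, adjusted p 0.00019 by limma).

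Among the voltage-gated channels, *Cacna1c* and *Cacnb2* were at log2 fold changes of 0.05 and 0.13 with Nrf1, and several relatives fell. *Cacna1g*, the pore of a T-type channel, had a log2 fold change of -1.20 with Nrf1 (adjusted p 2.92e-11), and *Cacnb3*, a paralog of *Cacnb2*, of -1.18 (adjusted p 1.12e-09). Outside this family, *Orai2*, a store-entry channel, had one of -1.18 (adjusted p 4.9e-08, all by limma). *Cacna1d*, a paralog of *Cacna1c* with a LacZ mean of 30.7 normalized reads, fell as well (log2 -0.93, adjusted p 0.0031). With Nrf2 *Cacna1g*, *Cacnb3* and *Orai2* were also lower, short of 1.5-fold. They stood at 0.771, 0.686 and 0.668 times the LacZ level (adjusted p 1.95e-05, 1.55e-05 and 8.83e-05 by limma). *Cacna1d* did not pass with Nrf2 (log2 0.25, adjusted p 0.277 by limma). The 4 genes upregulated with Nrf1, named after their values were seen, were *Atp2b4* (a plasma membrane pump, log2 1.02), *Atp2a1* (the skeletal SERCA, 0.90, from a mean of 69.8 normalized reads in LacZ to 128), *Tmem38b* (an SR counter-ion channel, 0.81) and *Rrad* (a small GTPase that restrains the L-type channel, 0.73). *Rrad* was lower with Nrf2 than with Nrf1, at a log2 fold change of -0.96 (adjusted p 1.69e-09). Higher with Nrf2 than with Nrf1 were *Hrc* (1.75), *Casq1* (1.24), *Itpr3* (1.04) and *Cacna2d2*, an auxiliary channel subunit (0.83). The 1 gene downregulated with Nrf2 over LacZ, also named after its values were seen, was *Rem1*, a relative of *Rrad* (log2 -1.23, LacZ mean 69.7). *Rem1* was downregulated with Nrf1 as well (log2 -1.24, adjusted p 0.00014 by limma). The upregulated gene with the lowest level with Nrf2 was *Ppp1r1a*, a phosphatase inhibitor, at a mean of 18.3 normalized reads.

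Of the remaining paralogs of the 10 genes, *Atp2a3*, a SERCA of non-muscle cells, had a mean of 31.9 normalized reads in LacZ and 16.8 in Nrf1 libraries (log2 -0.95, adjusted p 0.0058). *Jph1* had means of 132 and 150 (adjusted p 0.1) and *Cacnb1* of 66.7 and 57.7 (adjusted p 0.261). Of the other CaMKII genes, *Camk2b* was lower with Nrf1 (log2 -0.40, adjusted p 0.0036) and higher with Nrf2 (0.36, adjusted p 0.0129), both under 1.5-fold. Between the factors *Camk2b* was higher with Nrf2 by 0.76 on the log2 scale (adjusted p 1.9e-06), past 1.5-fold. *Camk2g* passed in no comparison, and *Camk2a* was higher with Nrf2 than with LacZ, at 1.45 times its mean of 29.9 (adjusted p 0.038). *Cacnb4*, *Slc8a2*, *Slc8a3* and *Mrln* had group means under 10 and were not tested, and *Ryr1* and *Ryr3* were not analysed here.

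**Figure D5:**
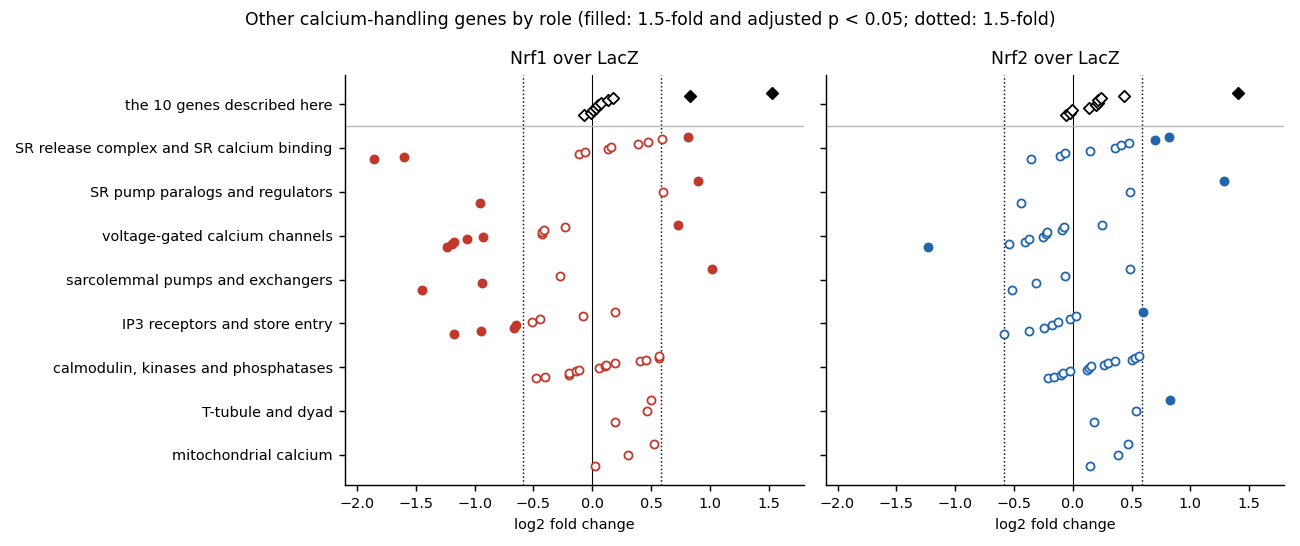
Log2 fold changes over LacZ (horizontal axes) of the other calcium-handling genes tested, 1 point for each gene, in rows by role, with the 10 genes in the top row as diamonds, for Nrf1 (left) and Nrf2 (right). Filled points exceed 1.5-fold (dotted lines) with an adjusted p under 0.05. With Nrf1, 14 of the 55 other genes tested and 0 of the 10 genes are filled on the downregulated side. On the upregulated side 4 of the 55 and 2 of the 10 are filled. By the same rule 17% of all genes tested were downregulated and 11.4% upregulated. Of 2502 genes with a mean of at least 1000, 189 were downregulated and 340 upregulated.

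Summed over the 10 genes, normalized reads scaled over the 9 libraries together were 47467 to 51537 in LacZ, 53574 to 55202 in Nrf1 and 55032 to 55656 in Nrf2 libraries. As a share of all solved reads the 10 genes made up 0.515% to 0.549% in LacZ, 0.551% to 0.565% in Nrf1 and 0.557% to 0.563% in Nrf2 libraries. These sums were not tested. Over the same groups the summed fibroblast markers were at 33380 or less with Nrf1 and at 68619 or less with Nrf2, and the part of this change in the higher levels of *Jph2*, *Atp2a2*, *Cacna1c* and *Cacnb2* was not tested. The ratio of *Ryr2* to a cardiomyocyte transcript depended on the transcript taken. There were 12.7 to 13.7 reads of *Ryr2* for each 100 reads of *Tnnt2* in LacZ, 26.6 to 27.9 in Nrf1 and 15.1 to 15.4 in Nrf2 libraries, and *Tnnt2* was itself lower with Nrf1. For each 100 reads of *Actc1*, itself upregulated with Nrf1, there were 11.4 to 13.4, 13.5 to 14.0 and 13.2 to 13.6 reads of *Ryr2*. *Atp2a2* had 47.3 to 53.9, 58.1 to 62.3 and 49.9 to 51.5 reads for each 100 reads of *Tnnt2* in the same order, so its higher level with Nrf2 was not seen against *Tnnt2*, which was itself higher with Nrf2 (log2 0.22). Against *Actc1* the ratio was 42.9 to 52.7, 30.5 to 31.2 and 44.3 to 45.0.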

How the data were processed

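RNA of 9 libraries (3 each of LacZ, Nrf1 and Nrf2) was sequenced as 75-bp single-end, stranded mRNA libraries. Per the submitters' processing notes and the study's methods, the authors used FastQC 0.11.4, HISAT2 2.0.4 on rat Rnor 6.0, SAMtools 0.1.18 to remove duplicate reads, featureCounts 1.6.0 and edgeR 3.20.5. Removing duplicates from single-end reads can lower the counts of abundant genes. The signal the authors deposited is, for each pair of groups, each group's mean of reads divided by size factors. The authors' fold changes and p-values in the same tables were not used, and 0 columns of single samples were left out.

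A group mean is a sum of whole reads times 1 fixed step for each library, and each group stands in 2 tables with different steps. The steps were read from genes with a single read, and the whole reads that met both means were searched, within 1.5 units of the last digit kept (10 digits in the LacZ tables, 15 in the other). Of the genes, 99.993% in LacZ, 99.676% in Nrf1 and 99.683% in Nrf2 were solved; libraries of all but scarce genes were first sought within 1.5-fold of the group mean, and for the 10 genes no such limit was needed. These steps were tested on simulated data.

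Normalized reads are the solved reads divided by the authors' size factors for that pair, so values of a group differ between comparisons and levels were compared within a table only. For each pair, log2(normalized reads + 0.5) was fitted for genes whose higher group mean reached 10, using limma 3.58.1 (R 4.3.3, trend, Benjamini-Hochberg). Fold changes are on this scale, which understates the change of low genes. Because whole reads came from a solution and not from a deposited count table, no count model was run. The planned test was limma on log values.

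The 10 genes, the other lists and the tests were chosen with earlier results of these data known. All 10 genes are named in each comparison. Of the other calcium genes, up to 5 called genes per comparison are named, those of largest change whose higher group mean reached 100, plus paralogs of the 10 genes, the 2 highest markers of each cell type list and *Nfe2l2*. Any further name, and the ratios between genes, came after a look at the values. No rat sequence or annotation was used.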

Additional observations from a re-analysis of the deposited data

How the results depend on the processing

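Counts of the 10 genes called past 1.5-fold did not change with the scaling, but they depended on the fold cutoff. By the adjusted p alone, the scaling also changed which genes passed, as listed below. With a fold cutoff of 2 in place of 1.5, 1 gene was called for Nrf1 over LacZ (*Sln*). The share of all genes at that cutoff was not counted. With no fold cutoff 4, 6 and 6 genes were called for Nrf1 over LacZ, Nrf2 over LacZ and Nrf2 over Nrf1. By adjusted p alone, 34.3% of all genes tested were higher and 32.5% lower for Nrf1 over LacZ. For Nrf2 over LacZ these shares were 28.6% and 26%, and for Nrf2 over Nrf1 28.9% and 29.8%. An adjusted p under 0.01, a pseudocount of 5, no filter, a mean of at least 100, total scaling, median-of-ratios over 9 libraries, re-centring on the median gene, ratios of the authors' means and leaving out each library gave counts within 1.5 times of those reported, and so did the settings tried on the other calcium-handling genes. For the latter, the 6 called for Nrf2 over LacZ became 4 to 9. The 18 called for Nrf1 over LacZ became 14 to 20, and the 13 for Nrf2 over Nrf1 became 11 to 14. Of 360 recomputed single-gene values, 16 changed sign, none of them of a gene called or with an adjusted p under 0.05. For Nrf1 over LacZ they were *Atp2a2* (-0.031 total scaling, -0.022 re-centred), *Pln* (-0.059 total scaling, -0.050 re-centred, -0.019 to 0.036 with 1 library left out), *Casq2* (-0.12 to 0.056 with 1 library left out) and *Cacna1c* (-0.014 total scaling, -0.0046 re-centred). For Nrf2 over LacZ they were *Pln* (-0.053 to 0.0039) and *Camk2d* (-0.021 to 0.022) with 1 library left out, and for Nrf2 over Nrf1 *Jph2* (-0.00095 total scaling, -0.012 to 0.038 with 1 library left out). Re-centring moved the log2 fold change and kept the adjusted p, so its values could not change sides by p. With these counted in, the adjusted p alone changed sides in 19 of the 360. Those under total scaling were *Cacnb2* (0.229) and *Camk2d* (log2 -0.13, 0.0058) for Nrf1 over LacZ, *Pln* (-0.11, 0.0147) and *Slc8a1* (-0.14, 0.0028) for Nrf2 over LacZ, and *Cacnb2* (0.0712) for Nrf2 over Nrf1. Under median-of-ratios *Slc8a1* passed for Nrf1 over LacZ (0.0468) and *Cacnb2* no longer did for Nrf2 over Nrf1 (0.0878). The cause was not tested. Total scaling moved the share of upregulated among all called genes from 48.9% to 38.0% for Nrf2 over LacZ. No paired analysis was possible because the solved libraries carry no replicate number. Depth limits *Sln* most, at 42 to 49 reads in LacZ libraries.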
